A study of Rattus norvegicus with 7 samples.

Results

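The genes described here are 10 members of the interleukin 6 and gp130 signalling pathway: Il6, Il6r, Il6st, Lif, Lifr, Cntf, Cntfr, Stat3, Jak2 and Socs3. They were chosen by symbol from the platform annotation, which gave them 14 of the 8740 probe sets of an Affymetrix rat array, and 10 of its 4736 distinct gene symbols. The list was selected on a pathway name with earlier results of these arrays known, among them the high Il6 signal of astrocytes at the highest dose, so the changes with dose are given as a description with no test. Primary hippocampal cultures from Wistar rats, labelled as 17 days old, were exposed for 24 h to grape seed extract, a plant preparation rich in polyphenols. Neuron cultures received 0, 1 or 10 µg/ml and astrocyte cultures 0, 1, 10 or 100 µg/ml. Each of the 7 combinations was measured on 1 array, so the error of values at single doses could not be estimated, and the number of arrays limits the precision.

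Interleukin 6 is a secreted cytokine that binds the receptor subunit encoded by Il6r, and the pair then engages the shared signalling subunit gp130, encoded by Il6st. Leukaemia inhibitory factor (Lif) and ciliary neurotrophic factor (Cntf) reach gp130 through the receptor encoded by Lifr, with Cntf using Cntfr as well. Receptor-bound Janus kinases such as Jak2 then phosphorylate the transcription factor Stat3, one of whose targets, Socs3, inhibits the receptor and closes a feedback loop. In the brain, ligands of this family are known for promoting astrocyte differentiation and reactivity and for supporting neurons.

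Promoter sequences from RefSeq (GRCr8) were found for 8 of the 10 genes, all but Lif and Cntfr. The 250 bases upstream of the start that the promoter table gives were searched on both strands for TTCNNNGAA (STAT), a kappa B motif of 10 bases, TGANTCA (AP-1), TGACGTCA (CRE) and TTGNGCAA (C/EBP). The sequence of Il6 is shown because this gene had the widest range of signal among the members, and that of Cntf because it was the other member with a match. Capitals mark the matches.
Il6: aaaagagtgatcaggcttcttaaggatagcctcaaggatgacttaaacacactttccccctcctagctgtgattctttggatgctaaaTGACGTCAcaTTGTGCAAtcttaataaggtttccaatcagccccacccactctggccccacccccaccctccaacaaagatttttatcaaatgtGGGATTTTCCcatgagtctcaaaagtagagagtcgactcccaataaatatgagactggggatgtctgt
Cntf: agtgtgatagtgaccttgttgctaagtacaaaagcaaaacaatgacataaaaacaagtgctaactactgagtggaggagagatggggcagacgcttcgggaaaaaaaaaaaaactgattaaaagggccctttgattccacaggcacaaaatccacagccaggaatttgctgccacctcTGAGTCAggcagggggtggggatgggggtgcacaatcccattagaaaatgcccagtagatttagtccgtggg
The Il6 window lies at chr4:5894576-5894825 on the minus strand. It held a CRE match 162 to 155 bases upstream of the start, a C/EBP match 152 to 145 bases upstream and a kappa B match 68 to 59 bases upstream, none overlapping another. Among 33469 promoters of the same length, 1.59% held the CRE letters, 2.29% the C/EBP letters and 1.30% the kappa B letters. The Cntf window, at chr1:219314536-219314785 on the minus strand, held an AP-1 match 72 to 66 bases upstream, a motif present in 6.34% of promoters. STAT letters, in 7.67% of promoters, were absent from the 3 windows that lie directly next to their gene's span in RefSeq (Il6, Cntf and Jak2). The other 5 windows (Il6r, Il6st, Lifr, Stat3 and Socs3) overlap the span of their gene, so they do not lie wholly before its outermost start. They held no match to any of the motifs. A match is a description of letters and was not tested for binding.

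Il6 was the member with the highest change. Its first probe set (M26744_at) had signals of 12.2, 18.5 and 22.5 in neurons, from 0 to 10 µg/ml, and of 19.6, 26.8, 442 and 17783 in astrocytes, from 0 to 100 µg/ml. The values below follow the same order of doses. Its second probe set (M26745cds_s_at) had 2.9, 2.0 and 3.7 in neurons, and 2.2, 5.2, 32.1 and 2260.3 in astrocytes. In both probe sets the astrocyte arrays at 10 and 100 µg/ml lay above the other 5 arrays, and all neuron signals lay close to or under 17.9. That value, the 25th percentile of all signals, served as a floor to which lower signals were raised before log2 was taken, so a fold against a signal under it is a lower bound. At 10 µg/ml the first probe set was 22.6-fold above untreated astrocytes, or 4.50 log2, and the second at least 1.79-fold. At 100 µg/ml they were 907-fold (9.83 log2) and at least 126-fold (6.98 log2) above the untreated array. The array at 100 µg/ml also exceeded that at 10 µg/ml by 5.33 and 6.14 log2. At 1 µg/ml the first probe set stood 0.45 log2 above untreated astrocytes and the second lay under the floor on both arrays. Neurons at 10 µg/ml stood at least 0.33 log2 above untreated neurons in the first probe set, with a signal under the floor on the untreated array.

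**Figure D1:**
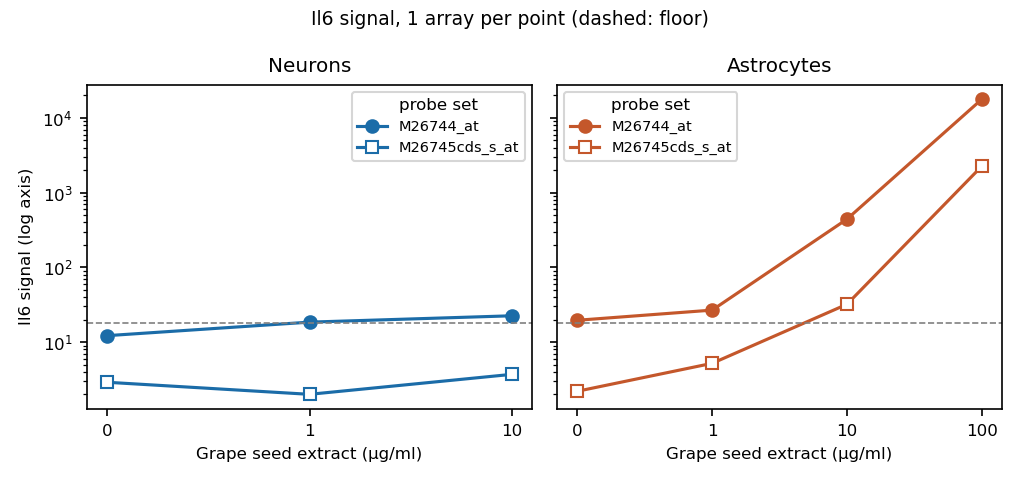
Il6 signal on a log axis against the dose of grape seed extract in µg/ml, for neurons (left) and astrocytes (right), with 1 array per point, filled and open symbols for the 2 probe sets and a dashed line at the floor of 17.9. Neurons stay near or under the floor, while astrocytes reach 442 at 10 µg/ml and 17783 at 100 µg/ml in the first probe set.

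All arrays had been scaled by the authors to nearly the same 2% trimmed mean, 500.7 to 500.9. The median change of the 4252 probe sets with a mean log2 signal in astrocytes above the median of all signals (79.9) was -0.26 log2 at 100 µg/ml and -0.10 at 10 µg/ml on this scale, while that of all 8740 was -0.05 and -0.00. Values relative to the median change refer to the brighter probe sets, a scale chosen after the data were seen, unless all probe sets are named. Relative to those medians, the first Il6 probe set stood at 10.09 and 4.59 log2. The cultures were not pure. Among genes represented by their brightest probe set, 22.3% of those tested between cell types were higher and 19.4% lower in neurons, while 6 of 6 tested neuron markers were higher and 5 of 6 microglia and macrophage markers, 3 of 3 oligodendrocyte markers and 5 of 6 fibroblast and meningeal markers were lower. Astrocyte markers went both ways, with 2 of 8 higher (Slc1a3 and Aqp4) and 3 lower in neurons (S100b, Sparcl1 and Aldh1l1). Slc1a3 had 9877 in untreated neurons against 3976 in untreated astrocytes, and S100b 1996 against 9085. The marker not tested, Slc1a2, a glutamate transporter of astrocytes, was dim on all arrays in its brightest probe set (14.8 to 43.1). The summed signal of 10 microglia and macrophage genes was 1687 to 2484 in neurons, and 7255, 8569, 14723 and 12895 in astrocytes by rising dose. Without Cd14 the other 9 summed to 826 to 1194 in neurons, and to 5767, 6647, 7304 and 3943 in astrocytes, so at 100 µg/ml they lay below the untreated array. Cd14 had 8952 at 100 µg/ml against 1488 untreated and Fcgr2b 1162 against 248, whereas Aif1 had 251 against 1636.5 in its brightest probe set and Cx3cr1 28.3 against 93.3. None of the 10 was at or under the floor at 100 µg/ml, and their part in the Il6 signal was not tested. In such bulk samples, more cells of a type and more RNA per cell cannot be told apart.

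Of the 14 member probe sets, 4 differed at least 2-fold between astrocytes at 100 and 0 µg/ml, 3 higher and 1 lower, against 20.7% of all 8740 probe sets (6.06% higher and 14.6% lower). At 10 µg/ml 5 did, 3 higher and 2 lower, against 8.33% of all (3.54% higher and 4.79% lower), and at 1 µg/ml 1 did, lower, against 5.33% (2.00% higher and 3.33% lower). The higher ones at 100 µg/ml were both Il6 probe sets and 1 of Jak2. At 10 µg/ml they were 1 of Il6 and 2 of Jak2 made from the same sequence, so these are not separate genes. The lower ones were Cntfr at 100 µg/ml, Lifr and Cntf at 10, and Lifr at 1. The median change of the members was 0.53 log2 at 100 µg/ml, 0.54 at 10 and -0.06 at 1, while that of all probe sets was -0.05, -0.00 and 0.00. The 3 comparisons share the untreated array, so a high or low value there enters all of them. Most members were dim: 4 probe sets lay above the median of all signals on all 7 arrays, 5 lay above it on none, and 5 were at or under the floor on at least 1 array. Changes of such probe sets rest on low signals and are given as values only.

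**Figure D2:**
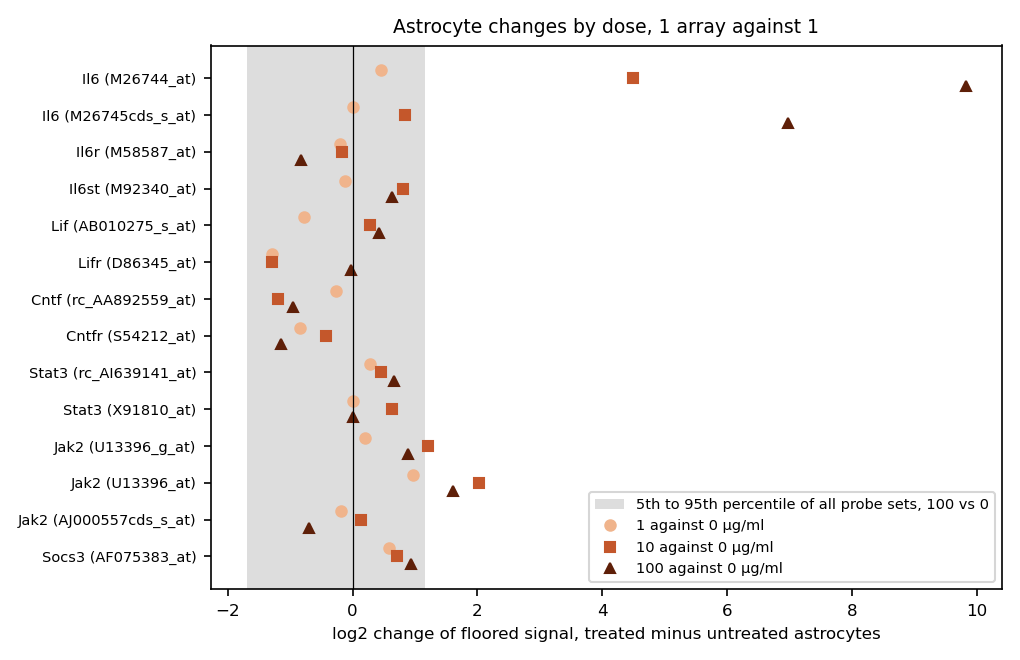
Change of floored log2 signal in astrocytes at 1, 10 and 100 µg/ml against the untreated array, 1 row per member probe set, with the 5th to 95th percentile of all probe sets at 100 µg/ml shaded (-1.69 to 1.16). Both Il6 probe sets and 1 Jak2 probe set lie to the right of the shaded range at 100 µg/ml.

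Among the other ligands, Cntf was bright and Lif dim. Cntf had signals of 1306, 1326 and 1342 in neurons, and of 1055, 874, 459.9 and 545 in astrocytes. The neuron arrays lay within a narrow range and above every astrocyte array, and the 2 highest astrocyte doses were the lowest of the 7. At 10 µg/ml the astrocyte signal was 2.29-fold below untreated astrocytes (-1.20 log2), and at 100 µg/ml 1.94-fold below (-0.95 log2, or -0.69 relative to the array's median change). The probe set was designed on an expressed sequence tag, which the annotation assigns to Cntf. Lif had 14.0, 48.6 and 18.0 in neurons, and 51.8, 30.1, 62.6 and 69.5 in astrocytes. The neuron array at 1 µg/ml stood at least 2.72-fold above the untreated one, where Lif lay under the floor, and at 10 µg/ml the signal was again at the level of the floor. In astrocytes Lif stood 0.27 log2 above the untreated array at 10 µg/ml and 0.42 at 100 µg/ml, both under 2-fold.

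The receptor genes changed less than Il6. Il6st, encoding gp130, had 509, 529 and 448 in neurons, and 687, 629, 1207 and 1065 in astrocytes. Every astrocyte array lay above every neuron array, and the astrocyte arrays at 10 and 100 µg/ml were the highest. Their changes against untreated astrocytes were 0.81 and 0.63 log2, or 0.91 and 0.89 relative to the median change of each array. Il6r, the ligand-binding subunit, had 149, 177 and 154 in neurons, and 216, 188, 192 and 122 in astrocytes. The astrocyte array at 100 µg/ml was the lowest of the 7, at -0.82 log2 from the untreated one, or -0.56 relative to the median change. Cntfr, the subunit that binds Cntf, had 59.2, 95 and 64.0 in neurons, and 114, 64.0, 85.3 and 51.7 in astrocytes. It was the 1 member at least 2-fold lower at 100 µg/ml, at -1.14 log2, and at -1.09 relative to the median change of all probe sets. At -0.88 relative to the median change of the brighter probe sets and at -0.85 after quantile normalization it lay within 2-fold. Lifr, the receptor shared by Lif and Cntf, had 61.4, 44.3 and 21.4 in neurons, and 43.7, 9.4, 8.0 and 43.0 in astrocytes. Astrocytes at 1 and 10 µg/ml lay under the floor, at least 2.44-fold below the untreated array, while the array at 100 µg/ml was level with it (-0.02 log2).

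Of the signal transducers, Jak2 was measured by 3 probe sets that did not move together. The brightest, U13396_g_at, had 167, 154 and 166 in neurons, and 119, 137, 275 and 219.9 in astrocytes. Its partner U13396_at, made from the same sequence, had 84.8, 66.8 and 82.3 in neurons, and 35.1, 68.7, 143 and 106.5 in astrocytes. In both, astrocytes at 10 and 100 µg/ml were the 2 highest of the 7 arrays and untreated astrocytes the lowest. The changes against untreated astrocytes were 1.21 and 2.02 log2 at 10 µg/ml, and 0.89 and 1.60 at 100 µg/ml (1.15 and 1.86 relative to the median change). The brighter of the pair lay under 2-fold at 100 µg/ml as deposited and relative to the median change of all probe sets (0.94), and past it relative to the brighter probe sets and after quantile normalization (1.30). The third, AJ000557cds_s_at, had 67.4, 40.9 and 44.8 in neurons, and 61.2, 54.1, 67.1 and 37.9 in astrocytes, with changes of 0.13 and -0.69 log2 at 10 and 100 µg/ml. Its range was nearly the same in both cell types, and none of its signals reached the median of all signals. Stat3 was dim in both of its probe sets. The first, rc_AI639141_at, had 58.4, 29.2 and 32.3 in neurons, and 31.2, 38.0, 42.6 and 49.6 in astrocytes. Untreated neurons were the highest of the 7 arrays, and astrocytes at 100 µg/ml stood 0.67 log2 above untreated astrocytes (1.06 after quantile normalization). The second, X91810_at, was under the floor on 5 arrays and reached 24.3 in untreated neurons and 27.6 in astrocytes at 10 µg/ml.

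Socs3, the feedback inhibitor, had 36.7, 75.7 and 19.4 in neurons, and 50.5, 75.3, 83.2 and 96.9 in astrocytes. The astrocyte signal was higher at each further dose, and the neuron arrays spanned both the lowest signal of the 7 and one as high as astrocytes at 1 µg/ml. Against the untreated array of the same cell type, Socs3 stood at 1.04 log2 at 1 µg/ml and -0.92 at 10 µg/ml in neurons, and at 0.58, 0.72 and 0.94 at 1, 10 and 100 µg/ml in astrocytes. At 100 µg/ml Socs3 thus lay under 2-fold as deposited, and also at 0.99 relative to the median change of all probe sets. It lay past 2-fold at 1.20 relative to the brighter probe sets and at 1.42 after quantile normalization.

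**Figure D3:**
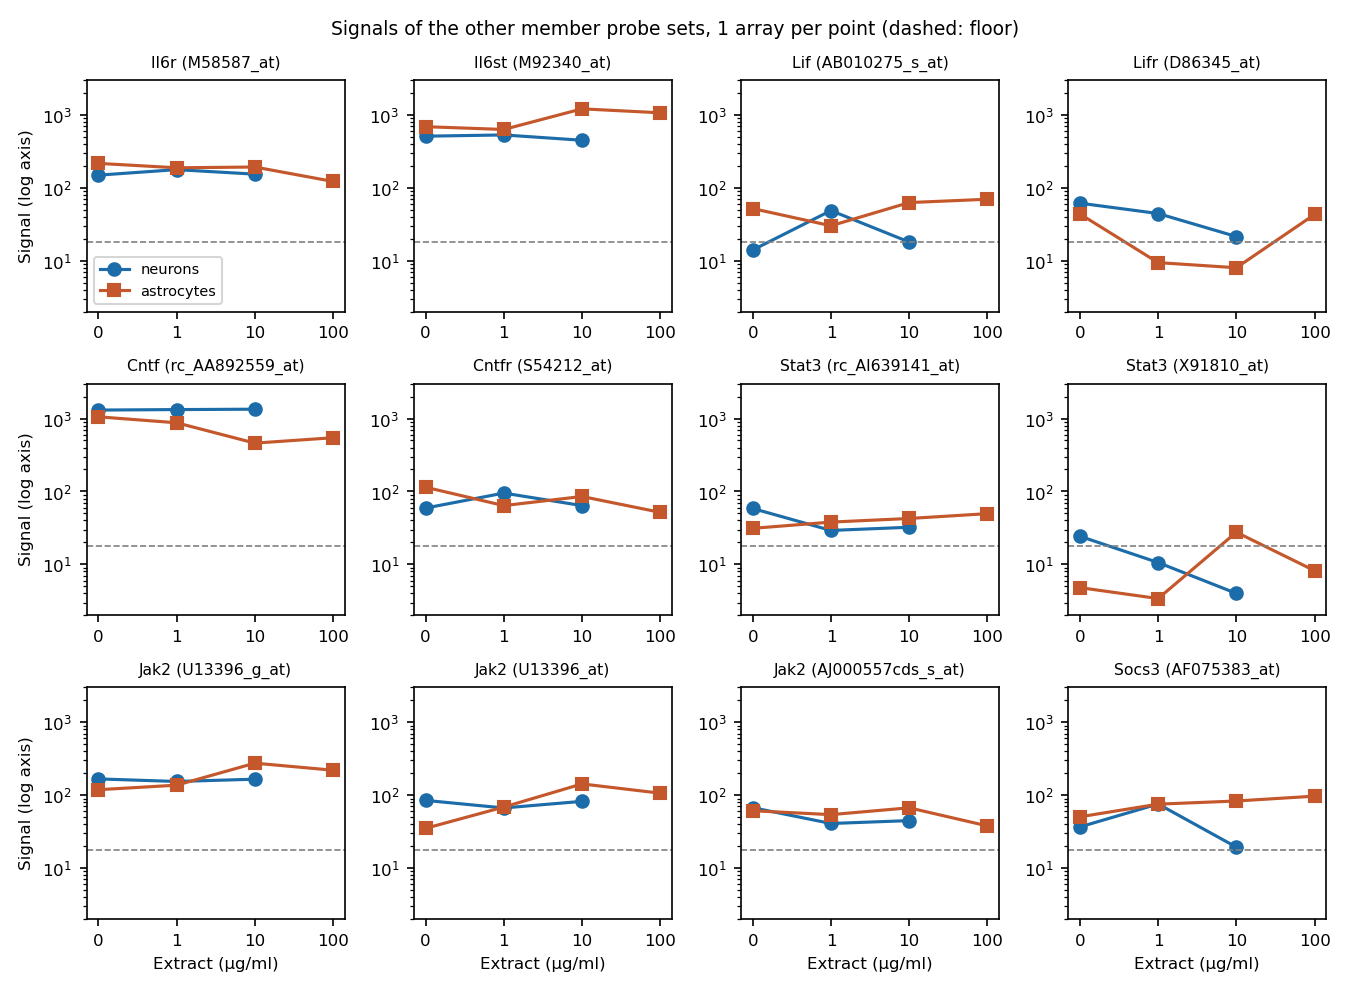
Signals of the 12 member probe sets other than those of Il6, on a log axis, against dose in µg/ml, with 1 array per point, neurons as circles, astrocytes as squares and a dashed line at the floor of 17.9. Cntf in astrocytes is lowest at 10 µg/ml (459.9), Il6st is highest there (1207), and Lif, Lifr, Cntfr, Stat3 and Socs3 reach 114 at most.

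In neurons, 3 of the 14 member probe sets differed at least 2-fold between 1 and 0 µg/ml (Lif and Socs3 higher, the first Stat3 probe set lower), against 4.06% of all probe sets (2.15% higher and 1.91% lower). At 10 µg/ml 1 did, Lifr, at -1.52 log2, against 4.08% (1.78% higher and 2.30% lower). No probe set was among them at both doses. None of the 4 member probe sets whose mean log2 signal in neurons passed the median of all signals (Cntf, Il6st, Il6r and the brightest of Jak2) differed 2-fold at either dose. The highest absolute change among these 4 was 0.25 log2, for Il6r at 1 µg/ml.

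Neurons were compared with astrocytes over the 3 arrays each at 0, 1 and 10 µg/ml. The limma test covered the 4377 probe sets whose mean over these 6 arrays passed the median of all signals, with Benjamini-Hochberg adjustment over all of them. It called 42.2% of them, 23.4% higher and 18.8% lower in neurons. Of the 14 member probe sets 4 were bright enough to be tested, and 2 were called, a share near that of all probe sets. Cntf was higher in neurons by 0.82 log2 (95% interval 0.18 to 1.46, limma adjusted p = 0.0455). Il6st was lower in neurons by 0.70 log2 (difference -0.70, interval -1.26 to -0.15, limma adjusted p = 0.0469). The neuron and astrocyte arrays did not overlap for Cntf and Il6st, nor for Il6r, which was not called. The share of all probe sets without overlap was not counted, so nothing is read from this. With dose as a block, which pairs the cell types at each dose, Il6st was no longer called (limma adjusted p = 0.0710) and Cntf was (0.0456). Without astrocytes at 10 µg/ml both differences were smaller, 0.46 for Cntf and -0.41 for Il6st (limma adjusted p = 0.0127 and 0.0310). Both calls were lost without any 1 of the 3 neuron arrays (limma adjusted p of 0.106 to 0.115 for Cntf and 0.0947 to 0.132 for Il6st), and that of Cntf also without astrocytes at 1 µg/ml (0.0649). Il6r differed by -0.32 (-0.67 to 0.04, limma adjusted p = 0.134) and the brightest Jak2 probe set by -0.02 (-0.72 to 0.67, 0.957), so a difference within these intervals was not excluded. Arrays at different doses stood in for replicates, so the spread holds the effect of dose. For Cntf the untreated cultures alone had 1306 in neurons and 1055 in astrocytes, and those at 10 µg/ml 1342 and 459.9.

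The remaining genes of the pathway were taken from lists of gp130 ligands and receptors, JAK-STAT components, the RAS-MAPK and PI3K branch, STAT3 targets and regulators of Il6, taking the brightest probe set of each gene. At 100 against 0 µg/ml in astrocytes, 6.27% of all 4736 genes were at least 2-fold higher and 16.0% lower, and at 10 µg/ml 3.84% higher and 4.77% lower. The lists were chosen with earlier results of these data known, so their counts beside these shares are a description with no test. Among regulators of Il6 transcription and mRNA decay, 9 of 16 measured genes were higher and none lower at 100 µg/ml, with a median of 1.32 log2. At 10 µg/ml 5 were higher and 1 lower. Crem, counted as higher at 100 µg/ml (1.59), had -0.73 in another of its 4 probe sets. Fosl2, a subunit of the AP-1 factor, had 1086 at 100 µg/ml against 24.3 untreated (5.48 log2, but -0.09 in its other probe set), and Fosl1, another subunit, 1538 against 74.0 (4.38). Atf3, a stress-induced factor that binds CRE-like sites, had 11436 against 444 (4.69), and Nfkbia, the inhibitor of NF-kB that NF-kB itself induces, 7897 against 668 (3.56).

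Among STAT3 targets, 11 of 30 measured genes were at least 2-fold higher at 100 µg/ml and none lower, with a median of 0.43 log2, and 5 were higher at 10 µg/ml. Of these 11, Vegfa (1.48) and Il10 (2.05) each had another probe set that was lower, at -1.22 and -1.12. The 4 with the highest change at 100 µg/ml were Fos at 5.10 log2, Junb at 4.70, Lcn2 at 4.38 or more and Cebpb at 3.95. Fos and Junb are AP-1 subunits, Lcn2 an iron-carrier-binding secreted protein, and Cebpb a factor that itself binds the Il6 promoter. These genes also respond to other pathways, and several acute-phase genes of the list, such as Serpina3n (440.2 at 100 µg/ml against 604 untreated) and Hp (83.1 against 60.6), stayed within 2-fold. Of the JAK-STAT components, 2 of 19 were higher and 4 lower at 100 µg/ml, with a median of 0.00. The lower ones were Ptpn6, a phosphatase of blood cell lineages (-4.23), Stat5a (-1.93, and 0.00 in its other probe set), Sh2b3, an adaptor that restrains cytokine signalling (-1.87 and -0.65 in its 2 probe sets), and Pias3, an inhibitor of Stat3 (-1.79). Ptpn6 had 53.9 at 100 µg/ml against 1009.5 untreated. The brightest probe set of the microglial marker Aif1 was lower at the same dose (-2.71, with up to 0.35 among its 3 probe sets). Of the 10 measured microglia and macrophage genes, however, 2 were at least 2-fold higher and 2 lower, with a median of -0.08. The part of such cells in the Ptpn6 change was not tested. In the RAS-MAPK and PI3K branch, 1 of 10 was higher and 5 lower, with a median of -0.98, and the 4 with the highest absolute change were Pik3r1 (at most -1.58), Map2k2 (-1.45), Pik3r2 (at most -1.32) and Nras (-1.24). Relative to -0.26, Nras was at -0.98 and Map2k1 (-1.09 as deposited) at -0.83, both within 2-fold. Map2k1 had up to -0.08 among its 3 probe sets. Akt2, the 1 gene counted as higher (1.19), had 0.00 in its other probe set. Of 12 further gp130 ligands and receptors, Ctf1, encoding cardiotrophin 1, was the 1 measured. It had 561, 641 and 563 in neurons, and 367, 299, 209 and 222 in astrocytes, and it was higher in neurons by 1.05 log2 (limma adjusted p = 0.00479).

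**Figure D4:**
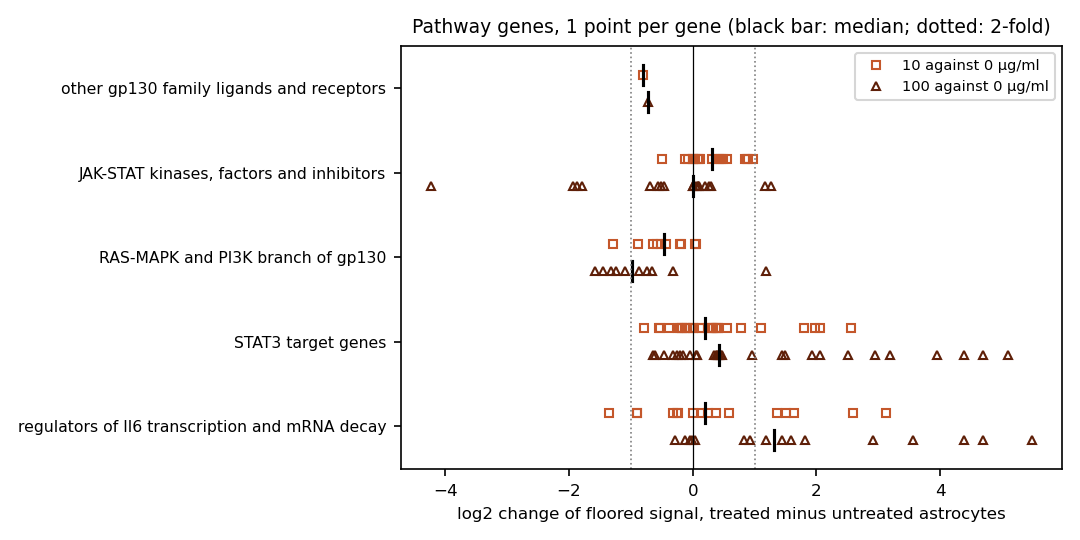
Change of floored log2 signal in astrocytes at 10 and 100 µg/ml against the untreated array for genes of 5 pathway lists, 1 point per gene, with a black bar at each list's median and dotted lines at 2-fold. At 100 µg/ml the medians are 1.32 for regulators of Il6, 0.43 for STAT3 targets and -0.98 for the RAS-MAPK and PI3K branch.

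Between cell types, 2 of the 12 tested JAK-STAT genes were higher and 4 lower in neurons (limma, adjusted over all probe sets), against 22.3% higher and 19.4% lower of all tested genes. The same counts were 7 and 3 of 22 for STAT3 targets, 1 and 1 of 9 for regulators of Il6, and 1 and 0 of 6 for the RAS-MAPK and PI3K branch. With so few genes tested, nothing particular to these lists is read from the counts. Lcn2 had 712, 737 and 617 in neurons, and 6.8, 17.3, 74.5 and 374 in astrocytes, so it was high in neurons at every dose and dose-ordered in astrocytes.

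The genes with the pattern most like that of each member were found as those with the smallest root mean square difference between log2 profiles over the 7 arrays, each centred on its own mean. Candidates were 3658 probe sets whose mean log2 signal over the 7 arrays passed the median of all signals (79.9). For Il6 these were Ccl4 (1.14 log2), Ptgs2 (1.18), Gdf15 (1.22), Il1a (1.25), Dusp1 (1.27) and Cxcl2 (1.28), against a median of 3.61 over all candidates. Ccl4 and Cxcl2 are chemokines, Ptgs2 is the inducible cyclooxygenase, Gdf15 and Il1a are cytokines, and Dusp1 is a MAP kinase phosphatase. Ptgs2, Gdf15 and Dusp1 were under 79.9 in neurons and untreated astrocytes, so they entered the candidates through treated astrocyte arrays. They had 3404, 4197 and 5895 at 100 µg/ml. Likeness to Il6 rests mainly on that 1 array, and no support is drawn from it. Ccl4 had 112, 95.8 and 118 in neurons, and 202, 232, 1713 and 13859 in astrocytes. For Il6st they were Ralgds (0.13), Tap2 (0.15) and Arf6 (0.15), against a median of 0.68. Ralgds, an exchange factor for Ral proteins, had 485, 499 and 497 in neurons, and 612, 561, 1045 and 860.2 in astrocytes. For Socs3 they were Sord, Triobp and Serinc3 (0.33 to 0.35), for Lif Asah1, Lamp2 and Dnajb9 (0.39 to 0.42), and for Stat3 R3hcc1, Smim13 and Napa (0.22 to 0.23), against medians of 0.90, 0.90 and 0.55. Lif, Socs3 and Stat3 were dim, below 100 on all arrays.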

How the data were processed

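Total RNA (100 ng per culture) was amplified, labelled with biotin and hybridized to 1-colour Affymetrix rat arrays, per the labels' protocols. The values used are linear signal intensities as deposited by the authors, computed with GCOS per the submitters' processing notes, whose version and settings are not stated there. The table held 8799 probe sets, of which 59 controls were left out. Gene symbols came from the platform annotation (1 symbol for 7006 probe sets, several for 308, none for 1426), and 6985 gene IDs were found in RefSeq with no symbol changed. Signals under the 25th percentile (17.9) were set to that floor before log2 transformation. Treated arrays were set against the untreated array of their cell type with no test. Cell types were compared at shared doses by a two-sided test in limma 3.58.1 (R 4.3.3), with lmFit and a trended eBayes prior at a threshold of 0.05. The fit was tried on simulated data with the same noise for all probe sets and no dose effect. That trial cannot assess the use of doses as replicates. Members and lists were chosen with earlier results of these data known. All member probe sets are named, with the 4 genes of each list with the highest absolute change in astrocytes at 100 µg/ml and the genes nearest to 5 members in profile. Other names were chosen after their values were seen. Alternatives were quantile normalization, no floor, other filters, centring, lower doses as reference, all 7 arrays, dose as a block, a constant prior, the mean over probe sets, and leaving out each array. Centring on the median of probe sets past the filter was chosen after seeing the data. Python 3.11.15 and matplotlib 3.10.9 drew the plots.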

Additional observations from a re-analysis of the deposited data

Results flagged for a closer look

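In 6 of the 14 member probe sets (42.9%, against 15.5% of all probe sets) both treated arrays at the shared doses moved one way in neurons and the other way in astrocytes. The changes at 10 against 0 µg/ml in neurons minus those in astrocytes were -2.07 and -1.22 log2 for the 2 Jak2 probe sets made from the same sequence, U13396_at and U13396_g_at. They were -1.30 for the first Stat3 probe set, 1.24 for Cntf, 0.53 for Cntfr and 0.21 for Il6r. The difference between cell types was not tested, since each dose has 1 array. Both changes within a cell type share its untreated array, and for Jak2 and Cntf the neuron changes were within 0.35 log2. Those of Il6r at 1 and 10 µg/ml were 0.25 and 0.05 in neurons, and -0.20 and -0.17 in astrocytes. The standard deviation of the change at 1 µg/ml over the brighter probe sets was 0.26 in neurons and 0.37 in astrocytes. The 2 Jak2 probe sets count separately though they share a sequence, and probe sets at the floor show no change.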

How the results depend on the processing

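On the deposited scale the Il6 change at 100 µg/ml was 9.83 log2. It was 8.18 against the mean of lower doses and 8.40 when both its probe sets were averaged, and kept its direction under all alternatives tried. Between cell types 1845 probe sets were called, 1034 with the stricter filter, where fewer were tested, and 1182 with all 7 arrays. The count of called member probe sets was 2, and 0 with no filter, 0 with a constant prior, 1 with all 7 arrays and 1 with dose as a block, where Il6st was lost and 1638 probe sets were called. After quantile normalization Il6st and Il6r were called (Il6r -0.43) and Cntf was not. Leaving out 1 array gave 1347 to 2046 calls and 0 to 2 members. Without single arrays the brightest Jak2 probe set ranged over -0.26 to 0.35, changing sign without neurons at 1 µg/ml (0.01) and without astrocytes at 10 µg/ml (0.35). Member probe sets at 2-fold in astrocytes at 1 µg/ml numbered 1, and 2 after quantile normalization or with no floor, and 0 past the filter within the cell type. At 10 µg/ml they were 5, but 6 after quantile normalization, 7 with no floor, 4 against the mean of lower doses and 3 past the filter. At 100 µg/ml they were 4, but 6 after quantile normalization and 5 relative to the brighter probe sets. There they were 2 against the mean of lower doses and 1 past the filter. In neurons at 1 µg/ml they were 3, but 4 with no floor, 2 after quantile normalization and 0 past the filter. At 10 µg/ml in neurons they were 1, but 2 with no floor, 2 against lower doses and 0 past the filter. The filter leaves fewer members, and for the other shifts the cause was not tested. The block on dose is the pairing the design allows, since the labels number no replicates. Low signal over background limits Lif, Lifr, Stat3 and Socs3.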

Other observations

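Other genes of the lists, chosen after their values were seen, were higher in astrocytes at 100 against 0 µg/ml. Icam1, an adhesion molecule, had 16694 against 1830 (3.19 log2) and Klf4, a transcription factor, 1879 against 329.8 (2.51). Timp1, an inhibitor of matrix proteases, had 12636 against 4626 (1.45). Zfp36, which promotes the decay of cytokine mRNAs, had 7059 against 934 (2.92), and Il10, an anti-inflammatory cytokine, 148 against 35.8 (2.05, with -1.12 in its other probe set). Cish, a SOCS family member, had 137 against 61.2 (1.17), but lay under the floor at 1 µg/ml (15.8). Of the same family, Socs7 stood at 0.27 log2, and Socs2 lay under the floor at both 0 and 100 µg/ml. A2m and Vim, both near the top of the signal range, were within 0.21 log2 of the untreated array at every dose in astrocytes, by their brightest probe sets.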
